A study of Mus musculus with 262 samples.

Results

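A set of 10 claudin genes, the integral membrane proteins of tight junctions, were followed through every kind of sample in a study of mouse kidney RNA. The genes were taken by symbol: Cldn2, Cldn3, Cldn4, Cldn7, Cldn8, Cldn10, Cldn14, Cldn16, Cldn18 and Cldn19, which are 10 of the 25 claudin symbols that each deposited table holds. All 10 were found in each table. The whole series comprised 262 samples from 2-month-old male mice. The C57BL/6 samples were single cells (74 principal, 87 type A and 23 type B intercalated, 32 non-epithelial and 19 proximal tubule cells, as the authors named them), 2 bulk sorts on c-Kit, 2 bulk sorts on the lectin DBA, and single tubules dissected by hand, of which 11 were cortical collecting ducts (CCD) and 8 were thick ascending limbs from the cortex (cTAL). From the strain Atp6v1b1GFP, 2 GFP-positive and 2 GFP-negative bulk sorts were made; the strain is named for Atp6v1b1, a proton pump subunit of intercalated cells, and the strain background beyond that name is not given in the labels. The single cells were sorted on DBA, c-Kit or PNA before capture on a microfluidic chip, so the share of each type among them reflects the sort.

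Claudins line up on both sides of the gap between neighbouring epithelial cells and set which ions pass between the cells. Some, such as claudin-2 and one form of claudin-10, form pores for cations, while others tighten the junction or favour chloride. In the thick ascending limb claudin-16 and claudin-19 act together in the reabsorption of magnesium and calcium between cells, claudin-14 counteracts them, and claudin-10 carries sodium. In the collecting duct claudin-4 and claudin-8 act together in the passage of chloride, and claudin-7 and claudin-3 are further claudins of the distal nephron. Claudin-2 and another form of claudin-10 belong to the leaky proximal tubule, and claudin-18 is best known from stomach and lung.

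The claudins of the collecting duct and of the thick ascending limb lay at separate places in the genome, apart from Cldn3 and Cldn4, which were neighbours on chromosome 5 with a gap of 39.3 kb between them and lay on opposite strands. The promoters of Cldn4, Cldn16 and Cldn10 are printed because these genes had the widest differences between the 2 tubule kinds (below), and that of Cldn3 because it is the neighbour of Cldn4. Each is the 250 bases before a start annotated by RefSeq on GRCm38.p6, written in the direction of transcription, with each CG dinucleotide in capitals. The Cldn4 window is chr5:134946935-134947184 on the minus strand, that of Cldn3 is chr5:134985964-134986213 on the plus strand, that of Cldn16 is chr16:26462885-26463134 on the plus strand, and that of the upstream start of Cldn10 is chr14:118787621-118787870 on the plus strand.
Cldn4: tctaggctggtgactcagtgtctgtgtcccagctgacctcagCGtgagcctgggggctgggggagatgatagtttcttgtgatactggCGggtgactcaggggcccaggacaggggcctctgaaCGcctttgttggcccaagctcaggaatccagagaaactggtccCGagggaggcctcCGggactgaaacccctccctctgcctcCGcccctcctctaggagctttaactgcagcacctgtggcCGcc
Cldn3: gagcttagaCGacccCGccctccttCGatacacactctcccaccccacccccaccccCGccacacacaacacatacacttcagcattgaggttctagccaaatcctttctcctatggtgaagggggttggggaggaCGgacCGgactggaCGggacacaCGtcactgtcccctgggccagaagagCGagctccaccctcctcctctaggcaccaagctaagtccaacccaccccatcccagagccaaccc
Cldn16: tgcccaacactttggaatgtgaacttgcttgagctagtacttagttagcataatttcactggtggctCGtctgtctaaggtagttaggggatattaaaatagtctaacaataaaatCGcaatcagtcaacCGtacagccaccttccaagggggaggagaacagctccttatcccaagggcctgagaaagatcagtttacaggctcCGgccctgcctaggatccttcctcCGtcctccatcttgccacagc
Cldn10: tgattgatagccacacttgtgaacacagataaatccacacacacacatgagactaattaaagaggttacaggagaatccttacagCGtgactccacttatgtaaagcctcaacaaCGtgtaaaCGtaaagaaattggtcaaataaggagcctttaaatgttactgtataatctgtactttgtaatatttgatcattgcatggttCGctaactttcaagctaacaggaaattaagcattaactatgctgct

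These promoters held 7 CG dinucleotides at Cldn4, 9 at Cldn3, 5 at Cldn16 and 4 at the upstream start of Cldn10, against a median of 6 over 32851 promoters. Cldn10 had a second RefSeq start, whose window at chr14:118854700-118854949 held 22 CG dinucleotides and 72.4% G and C, against 36.0% at the upstream start. The deposited values are per gene and pool the transcripts of both starts, so a Cldn10 level below cannot be assigned to either. RefSeq gave 15 promoters for 9 of the 10 genes.

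Libraries were checked first. Reads in genes numbered 35530885 to 40815091 in the GFP samples; depth is unknown for the other samples, whose values are TPM, a level per gene length scaled to the same total in every sample. Between 7617 and 13998 genes reached 1 TPM in the CCDs, and between 8091 and 12375 in the cTALs. Markers of the 2 tubule kinds followed the labels. Aqp2, the water channel of principal cells, was 10200 to 22096 TPM in the CCDs and 3.88 to 35.2 TPM in the cTALs, and Umod, the most abundant product of the thick ascending limb, was 29.0 to 629 TPM and 29949 to 48119 TPM. The DBA sort held 23300 and 25900 TPM of 8 principal cell markers and the c-Kit sort 2840 and 3760 TPM, but both sorts also held proximal tubule markers (7 genes, 2600 to 4610 TPM in sum). The labels do not state that bulk samples came from separate animals, so p-values for them measure only the spread between those samples. Column names give the tubules 7 numbers whose meaning is not stated, and several tubules share one.

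In single tubules, 4 collecting duct claudins were higher in the CCD and 4 thick ascending limb claudins were higher in the cTAL. Of the 9 claudins tested, Cldn8, Cldn7, Cldn4 and Cldn3 were called higher in the CCD and Cldn16, Cldn10, Cldn19 and Cldn14 lower, Cldn2 was not called, and Cldn18 was too low to be tested. Over all 13520 genes tested, 13.2% were called higher and 5.50% lower. The ranges of the 2 tubule kinds did not overlap for 6 of these claudins, against 5.51% of all genes. The median log2 difference was 0.74 over the 9 claudins and 0.31 over all genes. The median of the 9 is the value of Cldn2 itself, with 4 claudins above it and 4 below. After quantile normalization the median was 0.15 over the claudins and -0.03 over all genes. That step also moved the part of called genes that was higher in the CCD from 70.5% to 49.5%.

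Cldn4, a chloride-linked claudin of the collecting duct, showed the widest gap. Its lowest, median and highest levels were 74.8, 140 and 302 TPM in the 11 CCDs and 0.02, 0.14 and 0.25 TPM in the 8 cTALs. Every CCD was above every cTAL. The log2 difference, on the log2(TPM + 1) scale used for all TPM tests, was 6.98 (SE 0.29, limma adjusted p = 8.58e-15), and this scale understates a change that ends near 0.

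Cldn8, the partner of Cldn4, was present in both tubules. Its lowest, median and highest levels were 559, 860 and 1468 TPM in the CCDs and 142, 246 and 277 TPM in the cTALs, without overlap (log2 difference 1.97, SE 0.15, limma adjusted p = 7.1e-10). Cldn7, which seals and also passes ions in the distal nephron, ran from 366 over a median of 506 to 571 TPM in the CCDs and from 73.1 over 152 to 200.2 TPM in the cTALs, again without overlap (log2 difference 1.76, SE 0.17, limma adjusted p = 2.88e-08). Cldn3, usually a sealing claudin, ran from 49.8 over 106 to 189 TPM in the CCDs and from 29.0 over 46.1 to 104 TPM in the cTALs. Its ranges overlapped, and its log2 difference was 1.02 (SE 0.27, limma adjusted p = 0.00936).

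The cTAL levels of Cldn8, Cldn7 and Cldn3 were a larger part of their CCD levels than those of Aqp2 and Slc26a4 were in the same tubules, and close to that of Atp6v1b1 for Cldn8 and Cldn7. As a percent of the CCD mean, Cldn8 was 15.4% to 30.0% in the 8 cTALs, Cldn7 was 14.9% to 40.7% and Cldn3 was 26.5% to 94.7%. Over the same tubules Aqp2 was 0.0252% to 0.229% of its CCD mean and Slc26a4, the chloride exchanger of type B cells, 0.0235% to 0.191%. Cldn4, at 0.0128% to 0.160%, was of the size of these markers. Atp6v1b1 was 15.0% to 39.5% of its CCD mean in the cTALs.

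The limb claudins showed the opposite order. Cldn10 was the highest claudin of the cTAL, at 809, 936 and 1203 TPM (lowest, median, highest), and was 0.96, 16.4 and 42.5 TPM in the CCDs (log2 difference -6.32, SE 0.59, limma adjusted p = 1.74e-08). Cldn19, the partner of Cldn16 in divalent cation reabsorption, was 336, 556 and 708 TPM in the cTALs and 0.5, 10.3 and 37.4 TPM in the CCDs (log2 difference -5.57, SE 0.41, limma adjusted p = 2.5e-10). Cldn16 was 319, 434 and 573 TPM in the cTALs and 0.24, 4.6 and 14.1 TPM in the CCDs (log2 difference -6.37, SE 0.43, limma adjusted p = 7.02e-11). None of these 3 overlapped between the tubule kinds.

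Cldn14, the counterplayer of Cldn16 and Cldn19, was low and uneven even in the limb. Its levels in the 8 cTALs were 0, 3.35, 5.92, 6.27, 9.13, 12.8, 24.6 and 26.5 TPM, and those in the 11 CCDs ran from 0 to 0.99 TPM. The ranges met only at the cTAL that was listed at 0, the one with the fewest genes at 1 TPM (log2 difference -2.65, SE 0.49, limma adjusted p = 2.86e-04). Casr, the calcium receptor that controls Cldn14 in the limb, was also higher in the cTALs (log2 difference -2.79, SE 0.63, limma adjusted p = 0.00233).

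**Figure D1:**
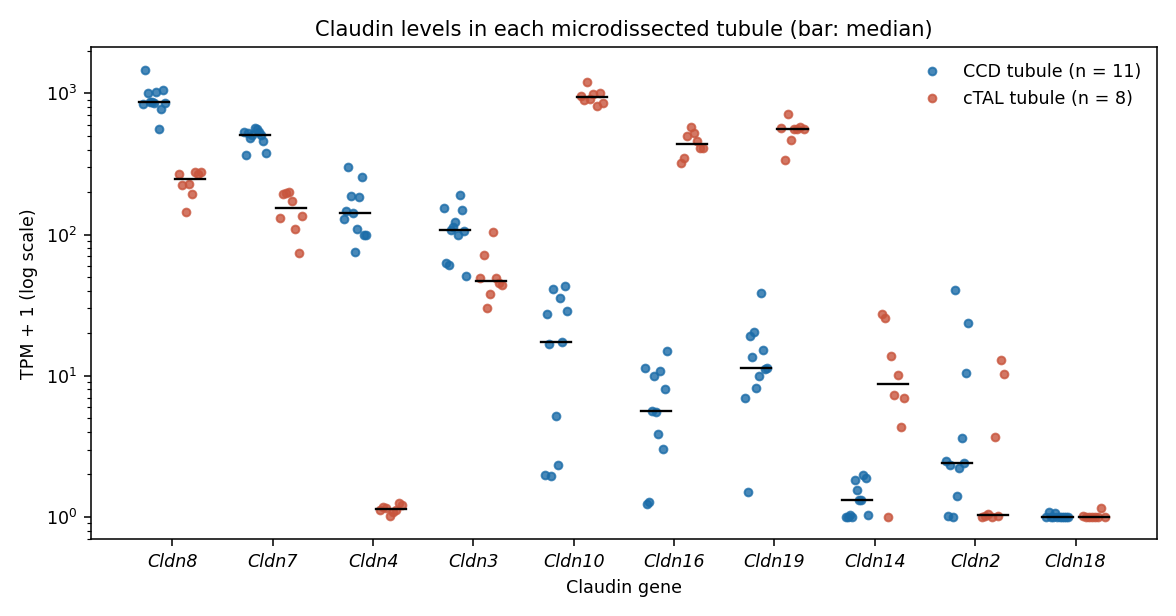
Level of each of the 10 claudins as TPM + 1 on a log axis, with 1 point per tubule, blue for the 11 CCDs and red for the 8 cTALs, and a bar at the median. Cldn4 lies at 74.8 to 302 TPM in the CCDs and at 0.25 TPM or less in the cTALs, while Cldn10, Cldn16 and Cldn19 lie at 319 TPM or more in every cTAL.

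Cldn2, the cation pore of the proximal tubule, was not called between the tubules (log2 difference 0.74, SE 0.74, limma adjusted p = 0.555). It ran from 0 over a median of 1.42 to 39.6 TPM in the CCDs and from 0 over 0.035 to 11.8 TPM in the cTALs. The highest CCD, at 39.6 TPM, also had the highest sum of 7 proximal tubule markers among the CCDs (866 TPM), and the highest cTAL, at 11.8 TPM, had the highest among the cTALs (580 TPM). The part of proximal RNA in these levels was not tested. Cldn18 stayed at or below 0.09 TPM in the CCDs and at or below 0.16 TPM in the cTALs.

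The make-up of the claudin sum differed between the tubule kinds. All claudins together came to 1525 to 2069 TPM in the CCDs and 2125 to 2775 TPM in the cTALs. In the CCDs Cldn8 made up 51.7% ± 8.92 of that sum (SD, n = 11), Cldn7 28.0% ± 4.56, Cldn4 8.78% ± 3.71 and Cldn3 6.29% ± 2.74. In the cTALs Cldn10 made up 39.5% ± 3.05 (SD, n = 8), Cldn19 22.2% ± 3.28, Cldn16 18.2% ± 2.98, Cldn8 9.82% ± 2.41 and Cldn7 6.24% ± 1.91. In every cTAL the Cldn10 share lay between 35.2% and 43.3%.

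Within tubules of 1 kind, none of the 5 relations between claudins passed its test. Over the 8 cTALs, Cldn16 and Cldn19 had Pearson r = 0.28 (exact permutation p = 0.527, adjusted over 8 relations 0.703) and Spearman rho = -0.10 (exact permutation p = 0.84). Cldn16 with Cldn10 gave r = 0.16 (exact permutation p = 0.719) and rho = 0.12, and Cldn16 with Cldn14 gave r = -0.48 (exact permutation p = 0.231) and rho = -0.36. Over the 11 CCDs, Cldn8 with Cldn4 gave r = -0.16 (permutation p = 0.644) and rho = -0.11, and Cldn8 with Cldn7 gave r = -0.51 (permutation p = 0.127) and rho = -0.46. Leaving out the 2 tubules farthest from the median moved r to 0.77 for Cldn16 with Cldn19, 0.40 with Cldn10 and -0.60 with Cldn14, and to -0.12 for Cldn8 with Cldn4 and 0.06 with Cldn7. Between the 2 CCDs that share a column number, Cldn4 was higher where Cldn8 was in 4 of 4 pairs and Cldn7 in 2 of 4. In the 2 such pairs of cTALs, Cldn19 was higher where Cldn16 was in 0 of 2, and Cldn10 and Cldn14 in 1 of 2 each.

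Low levels of limb claudins in the CCDs varied from tubule to tubule. In percent of the cTAL mean, the median CCD had 1.72% for Cldn10, 1.92% for Cldn19 and 1.04% for Cldn16, against 0.461% for Umod and 0.154% for Slc12a1, the sodium-potassium-chloride cotransporter of the limb. The percent was above that of Umod in the same tubule in 10 of 11 CCDs for Cldn10, 10 of 11 for Cldn19 and 8 of 11 for Cldn16. Cldn10 and Umod were correlated across the 11 CCDs (r = 0.81, permutation p = 0.00242, adjusted over 8 relations 0.0194; rho = 0.85, permutation p = 0.00158), a relation looked at after its values were seen. Without the 2 CCDs farthest from the median of Umod, r was 0.62. Umod with Cldn16 gave r = 0.36 (permutation p = 0.269; rho = 0.47) and with Cldn19 r = 0.49 (permutation p = 0.124; rho = 0.63), and without those 2 CCDs 0.48 and 0.81. Of the column numbers, 4 held 2 CCDs each. Between the CCDs of a number, Cldn10 was higher where Umod was higher in 4 of 4, Cldn19 in 3 of 4 and Cldn16 in 2 of 4. Cldn10 is also a claudin of the proximal tubule. Proximal tubule markers summed to 424, 866, 72.0, 393 and 356 TPM in the CCDs with 42.5, 40.0, 34.7, 27.7 and 26.3 TPM of Cldn10. The last of these had Cldn16 at 0.24 TPM and Cldn19 at 0.5 TPM. In the other CCDs the proximal marker sum was 14.6 to 186 TPM. The part of limb or proximal RNA in these levels was not tested.

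**Figure D2:**
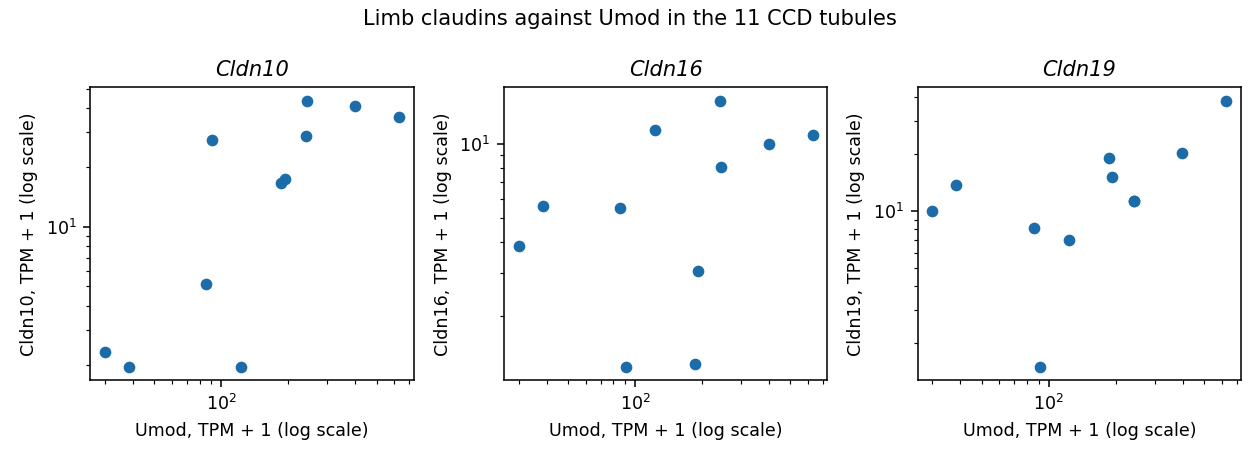
Cldn10, Cldn16 and Cldn19 (vertical) against Umod (horizontal), each as TPM + 1 on log axes, with 1 point for each of the 11 CCDs. Cldn10 is highest, at 42.5 TPM, in a CCD with 242 TPM of Umod, and the points are most scattered for Cldn16 (r = 0.36).

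Of a list of 24 other tight junction genes, 23 were tested between the tubules. In the CCD 4 were higher and 2 lower, against 13.2% and 5.50% of all genes, with a median log2 difference of 0.51 against 0.31 over all genes. Among the higher were F11r, which encodes a junctional adhesion molecule (2.63, SE 0.22, limma adjusted p = 2.52e-09), the scaffold Tjp3 (2.40, SE 0.48), and Lsr, a protein of junctions where 3 cells meet (1.02, SE 0.26). The 2 lower were Cgnl1, which links the junction to the cytoskeleton (-1.86, SE 0.23, limma adjusted p = 1.72e-06), and the membrane protein Ocln (-1.57, SE 0.28). Of 12 tested regulators and partners of renal claudins, 5 were lower: Slc12a1 (-8.70), Umod (-8.09), the parathyroid hormone receptor Pth1r (-4.91), Casr (-2.79) and the kinase Wnk4 (-2.27, SE 0.19, limma adjusted p = 1.89e-09). After quantile normalization 7 of the regulators were lower. Among the claudins outside the 10, Cldn12 (median 23.8 TPM in the CCDs and 14.8 TPM in the cTALs) and Cldn15 (8.24 and 0.83 TPM) were not called (limma adjusted p = 0.518 and 0.0575). Cldn9 (2.00, limma adjusted p = 0.0148) and Cldn6 (1.48, limma adjusted p = 0.0433) were called higher in the CCD, at means of 5.68 and 3.24 TPM, and are named after their values were seen.

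In single cells the collecting duct claudins differed by cell type, in particular Cldn4. Each cell type is 1 sample here, since no animal is named for a cell, so its values carry no test; 95% intervals are exact Clopper-Pearson intervals for counting error only. The median cell had 2703 genes at 1 TPM among type A cells, 2759 among type B cells, 2923.5 among principal cells, 3252 among proximal cells and 2861 among non-epithelial cells. A gene was called detected in a cell at 1 TPM or more.

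Cldn8 was the broadest. Detection reached 86 of 87 type A cells (98.9%, 93.8 to 100%), 70 of 74 principal cells (94.6%, 86.7 to 98.5%), 17 of 23 type B cells (73.9%, 51.6 to 89.8%), 14 of 19 proximal cells (73.7%, 48.8 to 90.9%) and 26 of 32 non-epithelial cells (81.2%, 63.6 to 92.8%). Non-epithelial cells, which should largely lack these claudins, are given as a reference for detection, and the source of claudin RNA in them was not tested. The type B share was below theirs, but 16 of 23 type B cells reached 100 TPM, against 11 of 32 non-epithelial cells. By level, the median was 607 TPM for type A, 322 TPM for principal, 282 TPM for type B, 5.36 TPM for non-epithelial and 3.85 TPM for proximal cells. The interquartile range was 95.8 to 1110 TPM for type A, 72.7 to 886 TPM for principal and 22.4 to 593 TPM for type B cells. These ranges overlapped. At 1 TPM the detection intervals of type A and type B cells did not overlap, but the shares were closer at other cuts. At 0.1 TPM 87 of 87 type A and 22 of 23 type B cells had Cldn8. At 10 TPM 73 of 87 and 17 of 23 did, and at 100 TPM 65 of 87 and 16 of 23.

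Cldn4 had its highest level in principal cells. Of these, 59 of 74 had it at 1 TPM or more (79.7%, 68.8 to 88.2%) with a median of 52.2 TPM and a mean of 402 TPM. Type A cells had it in 34 of 87 (39.1%, 28.8 to 50.1%), with a median of 0.44 TPM and a mean of 60.5 TPM, and type B cells in 8 of 23 (34.8%, 16.4 to 57.3%), with a median of 0.33 TPM. Non-epithelial cells had it in 10 of 32 (31.2%, 16.1 to 50.0%), a share close to those of both intercalated types, with a mean of 195 TPM. At 1 TPM the intervals of principal and type A cells did not overlap. At 0.1 TPM 67 of 74 principal and 77 of 87 type A cells had Cldn4, and at 10 TPM 45 of 74 and 23 of 87. In proximal cells it was detected in 9 of 19, and all 9 also held Aqp2 at 1 TPM or more, as did 14 of the 19 cells in all.

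Cldn7 was detected at similar shares in the 3 collecting duct types: 69.0% of type A cells (58.1 to 78.5%), 69.6% of type B cells (47.1 to 86.8%) and 73.0% of principal cells (61.4 to 82.6%), against 46.9% of non-epithelial cells (29.1 to 65.3%) and 21.1% of proximal cells (6.05 to 45.6%). Its medians were 20.7, 25.7 and 43.1 TPM in the collecting duct types and 0.695 and 0.12 TPM in the other two. Cldn3 was sparse: 10 of 87 type A, 7 of 23 type B, 20 of 74 principal and 6 of 32 non-epithelial cells had it, and 0 of 19 proximal cells did, which allows a share of up to 15.8% when 3 counts are taken as the limit of a 0 (exact upper bound 17.6%). The Cldn3 share in type A cells (11.5%) was below that in non-epithelial cells (18.8%), with intervals that overlap (5.65 to 20.1% and 7.21 to 36.4%), and 6 of the 10 type A cells with Cldn3 reached 100 TPM.

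Aqp2 was also looked for in cells that had a collecting duct claudin outside the collecting duct types. Among non-epithelial cells, 12 of the 15 with Cldn7, 7 of the 10 with Cldn4 and 14 of the 26 with Cldn8 had Aqp2 at 1 TPM or more, which 15 of the 32 had in all. In proximal cells this was so for 12 of 14 with Cldn8 and 4 of 4 with Cldn7. The part of RNA from collecting duct cells in these values was not tested. In type A cells, where Aqp2 reached 1 TPM in 58 of 87, it was present in 57 of the 86 with Cldn8 and 20 of the 34 with Cldn4.

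The proximal claudins Cldn10 and Cldn2 were detected at a larger share in proximal cells than in the other types. Cldn8 was still detected in more proximal cells (14 of 19) than either, at a lower median (3.85 TPM). Cldn10 was detected in 11 of 19 proximal cells (57.9%, 33.5 to 79.7%; median 37.1 TPM) and in 7 of 87 type A, 4 of 74 principal, 2 of 32 non-epithelial and 0 of 23 type B cells, the last of which allows a share of up to 13.0% by the same limit (exact upper bound 14.8%). Cldn2 was detected in 12 of 19 proximal cells (63.2%, 38.4 to 83.7%; median 13.6 TPM) and in 6 of 87 type A, 1 of 23 type B, 1 of 74 principal and 0 of 32 non-epithelial cells. Both genes were found in 8 proximal cells, Cldn2 alone in 4, Cldn10 alone in 3 and neither in 4. Cldn1, a sealing claudin outside the 10, was detected in 7 of 19 proximal cells with a mean of 107 TPM and in 0 of the 216 cells of the other types.

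**Figure D3:**
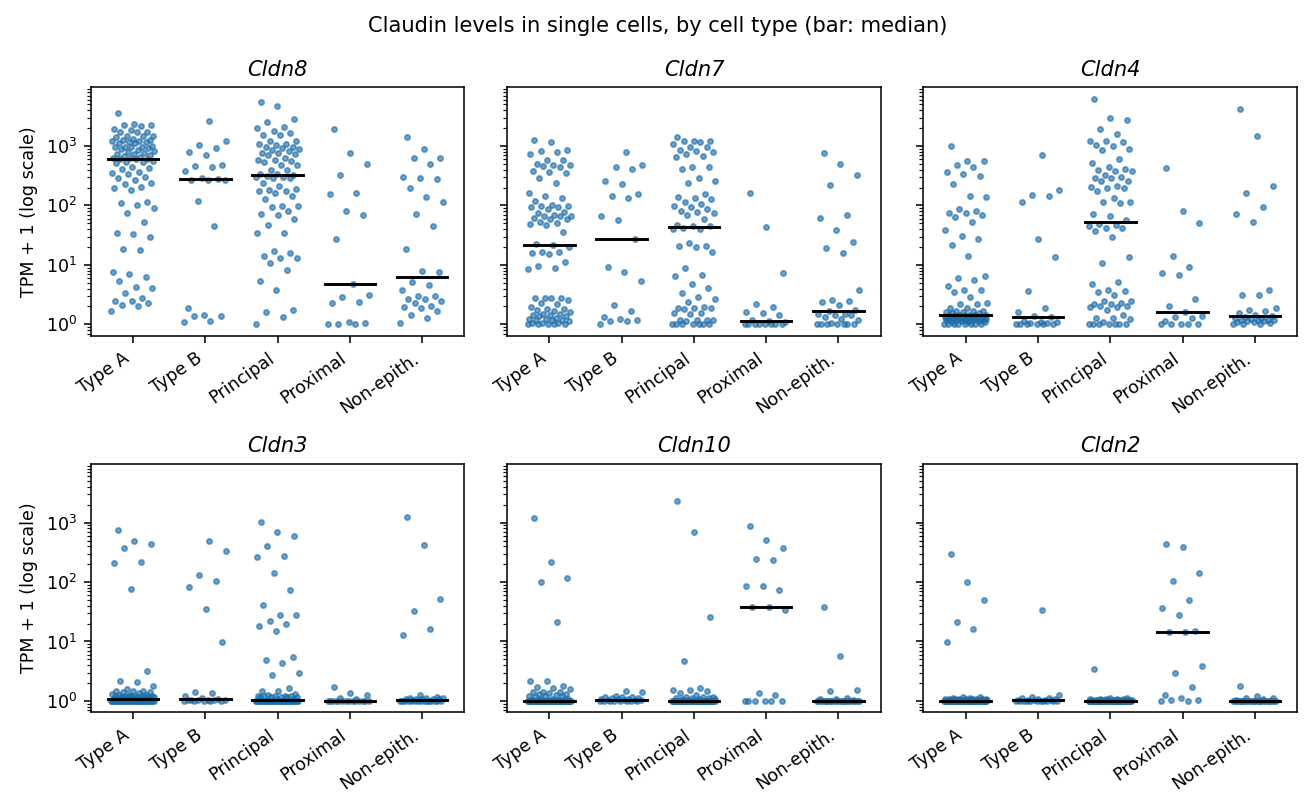
Level of 6 claudins in every single cell as TPM + 1 on a log axis, by cell type, with a bar at the median. The Cldn4 bar lies at 52.2 TPM in principal cells and at 0.62 TPM or less in the other types, and the bars of Cldn10 and Cldn2 leave the base line only in proximal cells, at 37.1 and 13.6 TPM.

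Limb claudins appeared in few cells, and only some of those cells held limb markers. Of the 216 cells outside the proximal type, Cldn10 reached 10 TPM in 9, Cldn19 in 3, Cldn16 in 2 and Cldn14 in 1. Umod or Slc12a1 also reached 10 TPM in 4 of those 9, 2 of those 3, 1 of those 2 and 0 of that 1. Over all 216 cells this held for 27. The proximal tubule marker Slc34a1 reached 10 TPM in 2 of those 9, 1 of those 3, 1 of those 2 and 0 of that 1. The type A cell with the highest Cldn10 (1199 TPM) had 15160 TPM of Umod, 1518 TPM of Slc12a1 and 14.4 TPM of Cldn19, with Foxi1, the factor that defines intercalated cells, at 0.77 TPM. In the principal cell with the highest Cldn10 (2309 TPM), Slc12a1 was 1063 TPM and Aqp2 487 TPM. The cell with the only high Cldn14 (786 TPM) was labelled a type A cell, with Umod and Slc12a1 listed at 0 and Foxi1 at 0.68 TPM. Cldn18 was listed at 0 in every cell of all 5 types.

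The leading claudin of a cell was most often Cldn8. Among the 10 genes it had the highest TPM in 66 of the 87 type A cells, 13 of the 20 type B cells and 44 of the 73 principal cells that had a detected member. Cldn4 led in 14 principal cells, 5 type A cells and 1 type B cell, and Cldn7 in 11, 12 and 4. In proximal cells Cldn10 and Cldn8 led in 7 each and Cldn2 in 3. The median cell held 2 detected members in type A, type B and non-epithelial cells and 3 in principal and proximal cells. In principal cells 45 of 74 had both Cldn4 and Cldn7, and 56 had both Cldn4 and Cldn8.

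The genes whose level was most like that of Cldn8 over all single cells were Tfcp2l1, a transcription factor of the collecting duct (Pearson r = 0.59), Car2, the carbonic anhydrase of intercalated cells (0.54), and Defb1 (0.51), of 10702 genes searched. For Cldn2 they were Susd2 (0.59), the glucose transporter gene Slc2a2 (0.55) and Bdh2 (0.54). The top gene was Acsm1 for Cldn10 (0.50), Tmem45b for Cldn4 (0.47), Scnn1a for Cldn7 (0.42) and RP24-359O2.7 for Cldn3 (0.35). These are descriptions on the log2(TPM + 1) scale. Cells may share chips, and the depth of each is unknown.

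Between the c-Kit and the DBA sort, Cldn8 and Cldn4 differed in opposite directions. Markers shared by both intercalated types summed to 6480 and 7070 TPM in the c-Kit sort and 2140 and 2340 TPM in the DBA sort, where principal cell markers were higher (above). Non-epithelial markers, 6 genes, summed to 3430 and 3710 TPM in the c-Kit sort and 10200 and 10600 TPM in the DBA sort, and the part of such cells in the results of these sorts was not tested. Of the 8 claudins tested, Cldn8 and Cldn7 were called higher in the c-Kit sort and Cldn2, Cldn4, Cldn19, Cldn10 and Cldn3 lower, while Cldn16 was not called and Cldn14 and Cldn18 were too low to be tested. Over all 14341 genes, 16.1% were called higher and 28.1% lower; quantile normalization moved the part of called genes that was higher from 36.5% to 49.9% and the median log2 difference over all genes from -0.11 to 0.02. In bulk samples fewer cells of a type and less RNA per cell cannot be told apart.

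Cldn8 was 888 and 972 TPM in the c-Kit sort and 626 and 704 TPM in the DBA sort (log2 difference 0.48, SE 0.08, limma adjusted p = 0.00331). Cldn7 was 308 and 329 TPM against 262 and 268 TPM (0.26, SE 0.06, limma adjusted p = 0.0127). For both genes the 2 sorts did not overlap, by a small margin. The same held for all 8 claudins tested, called or not, and for 21 of 23 other tight junction genes, and the share over all genes was not counted. Cldn4 was 30.0 and 34.6 TPM in the c-Kit sort and 74.1 and 76.7 TPM in the DBA sort, which is 2.34 times higher in the DBA sort by the means (log2 difference -1.20, SE 0.09, limma adjusted p = 1.21e-04). Cldn3 was 62.2 and 68.0 TPM against 80.5 and 85.6 TPM (-0.35, SE 0.08, limma adjusted p = 0.0117). With no variance trend the calls for Cldn7 and Cldn3 were lost (limma adjusted p = 0.0774 and 0.0509). They were also lost when single libraries were left out: Cldn7 without c-Kit replicate 1 or either DBA replicate (adjusted p 0.0644 to 0.0871), and Cldn3 without c-Kit replicate 2 or either DBA replicate (0.061 to 0.102).

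Claudins of other segments were also lower in the c-Kit sort. Cldn2 was 74.7 and 74.9 TPM against 180 and 191 TPM in the DBA sort (log2 difference -1.30, SE 0.06, limma adjusted p = 2.15e-05), and Cldn10 was 58.4 and 71.6 TPM against 102 and 113 TPM (-0.72, SE 0.11, limma adjusted p = 0.00246). Proximal tubule markers, 7 of 7 of which had a mean of at least 1 TPM in both sorts, summed to 2600 and 2850 TPM in the c-Kit sort and 4260 and 4610 TPM in the DBA sort. Their part in these 2 results was not tested. Cldn19 was 3.62 and 7.43 TPM against 12.2 and 12.8 TPM (-1.11, SE 0.28, limma adjusted p = 0.0179), a call lost without either DBA replicate (adjusted p 0.135 and 0.161), with no variance trend (0.0515) and with no filter on low values (0.0864). Limb markers, 5 genes with Kcnj1 among them, summed to 752 and 1220 TPM in the c-Kit sort and to 1510 TPM in each DBA sample. The limb genes Umod and Slc12a1 were not lower with c-Kit: Umod averaged 589.4 against 547.5 TPM and Slc12a1 114.1 against 103.3 TPM, neither called. Kcnj1, a potassium channel, averaged 174.5 against 842.3 TPM and was called lower. By the means, the lower limb sum in the c-Kit sort rested on Kcnj1. Between the single tubules Kcnj1 was not called, with means of 1017 TPM for CCDs and 920.9 TPM for cTALs. The part of limb RNA in the Cldn19 result was not tested. Cldn16 was 7.93 and 8.06 TPM against 6.21 and 6.38 TPM (0.30, SE 0.14, limma adjusted p = 0.124), but was called after quantile normalization (0.58, adjusted p = 0.0156) and with no variance trend (adjusted p = 0.0474). The call for Cldn10 was lost without DBA replicate 2 (adjusted p 0.0552).

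Outside the 10, 4 further claudins reached 10 TPM in a sort and were called. Cldn1 was 6.85 and 7.57 TPM in the c-Kit sort and 45.5 and 51.7 TPM in the DBA sort (log2 difference -2.59), Cldn15 (-1.19) and Cldn12 (-0.42) were lower too, and Cldn6 was 12.8 and 17.7 TPM against 2.57 and 2.87 TPM (2.11, SE 0.19, limma adjusted p = 2.37e-04). Cldn9 was called as well, below 10 TPM (1.19, limma adjusted p = 0.00921). Of 23 other tight junction genes, 3 were higher and 9 lower (median -0.18), against 16.1% and 28.1% of all genes, and after quantile normalization 6 were higher and 9 lower (median -0.06). Ildr2 (-1.30) and Jam3 (-1.14) were among the lower, and Cgnl1 (0.73), Ocln (0.41) and Crb3 (0.36) were the 3 higher. Of 13 regulators and partners, 6 were higher and 3 lower. The potassium channel Kcnj1 was among the lower (-2.27), while the kinase Wnk1 (1.78) and Casr (0.88) were among the higher.

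In the GFP sort, 4 claudins of the distal nephron were higher, and Cldn2, Cldn10 and Cldn18 were lower. GFP counts were compared with edgeR. Of 9 claudins tested, Cldn8, Cldn7, Cldn4 and Cldn16 were called higher in GFP-positive samples and Cldn2, Cldn10 and Cldn18 lower; Cldn19 and Cldn3 were not called, and Cldn14 was too low to be tested. Over all 15671 genes, 15.2% were called higher and 17.3% lower. The median log2 difference was 0.52 over the 9 and 0.02 over all genes. Non-epithelial markers summed to 393 and 820 CPM in the GFP-negative samples and 85.8 and 89.0 CPM in the GFP-positive samples (CPM are counts scaled to the TMM-adjusted library total), and their part in the results was not tested.

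Cldn8 had 4389 and 3658 reads in the GFP-negative and 22515 and 37501 in the GFP-positive samples, or 103 and 107 against 605 and 989 CPM (log2 difference 2.93, SE 0.26, edgeR adjusted p = 9.59e-05). Cldn7 was 10.1 and 10.7 against 27.7 and 37.4 CPM (1.64, SE 0.25, edgeR adjusted p = 0.00141), and Cldn4 was 14.5 and 22.5 against 56.4 and 58.3 CPM (1.63, SE 0.25, edgeR adjusted p = 0.00148). The samples of the 2 sorts were apart for each of the 3, as for all 9 claudins tested, called or not, and for 21 of 23 other tight junction genes. The share over all genes was not counted. Intercalated cell markers shared by both types summed to 45.7 and 63.6 CPM in the GFP-negative and 2470 and 3620 in the GFP-positive samples, and principal cell markers to 503 and 615 against 1200 and 2000; their part in these results was not tested. On the authors' RPKM values the difference of Cldn4 was 0.80 and was not called (limma adjusted p = 0.277).

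Cldn16 was 15.7 and 21.6 CPM in the GFP-negative and 44.2 and 47.0 in the GFP-positive samples (log2 difference 1.29, SE 0.23, edgeR adjusted p = 0.00342), a call lost on RPKM (limma adjusted p = 0.115) and held there with the experiment as a block (adjusted p = 0.0406). Its partner Cldn19 was 51.4 and 55.9 against 65.4 and 88.0 CPM (0.52, SE 0.20, edgeR adjusted p = 0.0785), and was called without GFP-positive replicate 2 (0.72, adjusted p = 0.0375). Limb markers, 5 genes, summed to 8470 and 8710 CPM in the GFP-negative and 10500 and 15600 in the GFP-positive samples, and 3 markers of the distal convoluted tubule to 110 and 133 against 746 and 1330. Their part in the Cldn16 result was not tested.

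Cldn2 made up the largest part of the claudin RPKM in the GFP-negative sort (below). It had 30977 and 27103 reads there and 5316 and 4149 in the GFP-positive samples, which is 6.02 times higher by mean CPM (log2 difference -2.59, SE 0.21, edgeR adjusted p = 7.05e-05). Cldn10 was 179 and 197 against 76.1 and 80.8 CPM (-1.26, SE 0.17, edgeR adjusted p = 6.49e-04). Proximal tubule markers summed to 16300 and 17600 CPM in the GFP-negative and 2030 and 3110 in the GFP-positive samples, and their part in these results was not tested. Cldn18 had 76 and 122 reads against 12 and 4 (-3.62, SE 0.85, edgeR adjusted p = 0.012). That call was lost on leaving out replicate 2 of either the negative or the positive sort (adjusted p 0.0646 and 0.0621), and the authors' RPKM table lists Cldn18 at 0 in 3 of the 4 samples. Cldn3 had 90 to 232 reads per sample (-0.62, SE 0.45, edgeR adjusted p = 0.332), and Cldn14 had 2 and 5 reads against 3 and 26. The RPKM table gave Cldn14 the other order, with 0.591 and 2.6 in the GFP-negative and 0 and 0.142 in the GFP-positive samples; whether both tables come from the same libraries and counting is not stated.

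**Figure D4:**
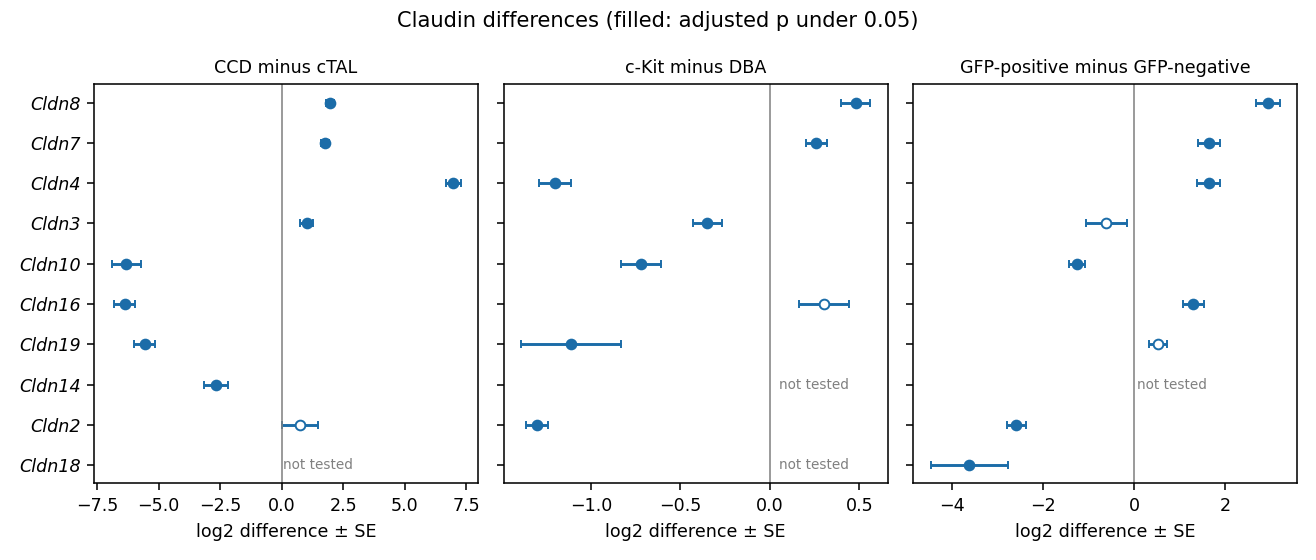
Log2 difference with its standard error for each of the 10 claudins in the CCD against cTAL, c-Kit against DBA and GFP-positive against GFP-negative comparisons, each on its own horizontal scale; filled points have an adjusted p under 0.05. Cldn8 and Cldn7 lie to the right in all 3 panels, Cldn4 lies left in the c-Kit against DBA panel and right in the other two, and Cldn16 lies left in the tubules and right in the GFP sort.

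The share of each claudin in the authors' RPKM values, which are per gene length, differed between the sorts. The sum runs over all 25 claudin symbols, among them Cldn25, which made up 6.13% in the GFP-negative and 7.41% in the GFP-positive samples on average and is not a claudin (below). Cldn8 made up 37.6% and 50.2% of the claudin sum in the GFP-positive samples and 5.35% and 6.00% in the GFP-negative ones, and Cldn2 made up 8.02% and 8.53% against 44.0% and 47.3%. In the TPM values of the other sorts Cldn8 was 57.1% and 61.0% in c-Kit and 42.2% and 44.9% in DBA samples, and Cldn2 4.69% and 4.82% against 12.2% in each DBA sample. Of the summed mean of single cells, Cldn8 was 70.9% in type A, 64.4% in type B and 46.8% in principal cells, and Cldn4 was 6.02%, 8.02% and 27.9%. In non-epithelial cells Cldn4 was 39.6% of a smaller sum, in which 2 cells at 1457 and 4195 TPM weighed most. In proximal cells Cldn8 was 36.0%, Cldn10 23.1%, Cldn1 18.2% and Cldn2 11.0%. The tables were normalized separately, so shares within a table and not levels are set side by side.

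**Figure D5:**
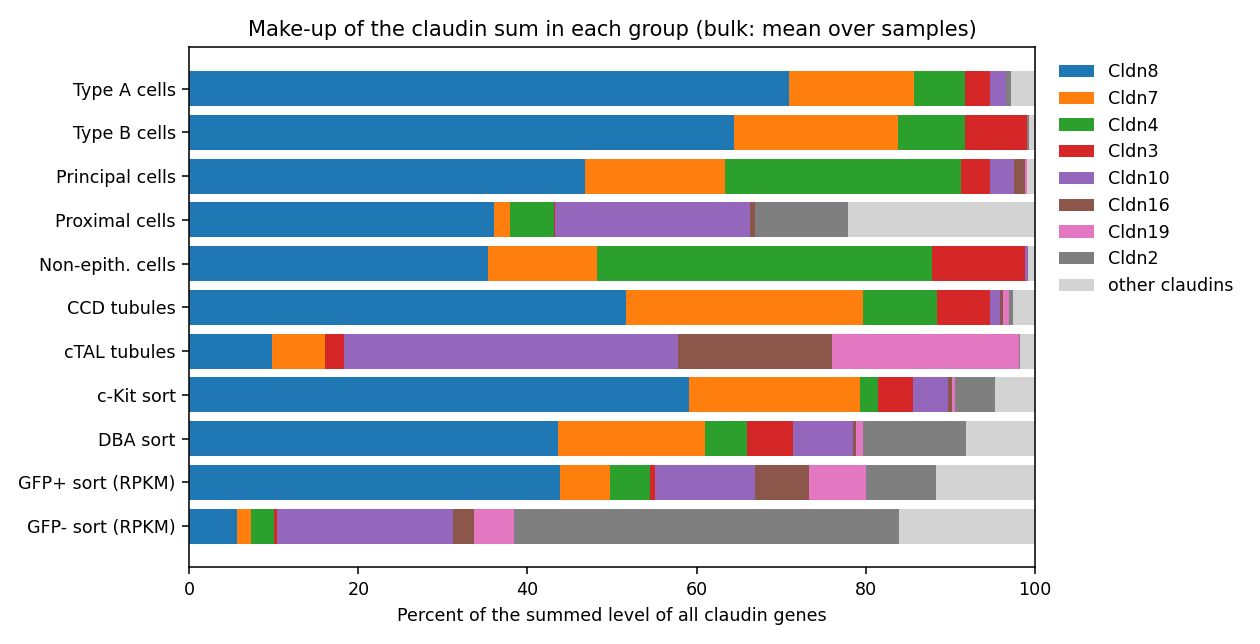
Percent of the summed level of all 25 claudin symbols that each named claudin made up, with 1 bar per group running from 0 to 100%; cell bars rest on mean TPM over cells, tubule and sort bars on the mean share over samples, and the GFP bars on RPKM. Cldn8 is the widest segment of the CCD bar (51.7%), Cldn10 of the cTAL bar (39.5%) and Cldn2 of the GFP-negative bar (45.6%).

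Other junction genes moved with the GFP sort as well. Of 23 further tight junction genes, 12 were higher with GFP and 3 were lower (median log2 difference 0.62, against 0.02 over all genes). Over all genes 15.2% were called higher and 17.3% lower, the reference for each list in this paragraph. Tjp3 (2.33, SE 0.28, edgeR adjusted p = 4.38e-04) and the scaffold Magi1 (1.87, SE 0.20) had the largest differences among the higher, and Jam3 (-2.06, SE 0.41), Ildr2 (-1.84, SE 0.37) and Jam2 (-1.61, SE 0.28) were the lower ones. Of 12 regulators and partners, 7 were higher and 2 lower. The magnesium channel Trpm6 (2.81, SE 0.32), Klhl3, a part of the ubiquitin ligase that targets Wnk kinases (2.65, SE 0.45), Wnk1 (1.94), Casr (1.86), Kcnj1 (1.43) and Wnk4 (1.32) were among the higher, and Pth1r (-1.12) was among the lower. Among the claudins outside the 10, Cldn1 (-3.25, SE 0.22, edgeR adjusted p = 4.68e-05) and Cldn12 (-1.42, SE 0.19) were lower; in all, 1 was called higher and 4 lower of 9 tested. The symbol Cldn25 in the GFP tables is the gene now called Cldnd1, which is not a claudin; its difference was 0.05 (edgeR adjusted p = 0.863).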

How the data were processed

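The values analysed were tables deposited by the authors. The authors deposited TPM values, scaled within each sample, for cells, tubules and the c-Kit and DBA sorts (47069 genes each), per the file names; for tubules this unit was read from the column sums. For the GFP samples the deposited raw counts were made with HTSeq-count on RefSeq mm10 genes, per the file's name and summary lines, and the authors' RPKM columns name the same sorts in a first and a second experiment; whether they come from the same libraries is not stated. STAR 2.5.1b, RSEM 1.2.31, Seurat and GRCm38.p5 are named, without a role per table, per the submitters' processing notes. Whether counting used strand is not stated, so genes that overlap on opposite strands cannot be told apart. Reads in no gene (66.5% to 72.7% of those listed) were left out.

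GFP counts were tested with edgeR 4.0.16 (TMM, filterByExpr, quasi-likelihood test) and TPM with limma 3.58.1 in R 4.3.3 (log2 of TPM + 1, variance trend, genes whose mean reached 1 TPM). Each fit ran over all genes of its table with only the 2 groups compared, p-values were adjusted by Benjamini-Hochberg, and calls were made at an adjusted p under 0.05; the fits were tested on simulated data. Single cells were summarised with Python 3.11.15 and scipy 1.17.1, with all cells kept, the authors' cell types and no doublet caller. TPM keeps no depth, so depth is known for the GFP samples alone. Positions are from GRCm38 (GENCODE M21) and RefSeq GRCm38.p6.

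The members and gene lists were chosen with earlier results of these data known. Named genes are the 10 members, further claudins with a mean of at least 10 TPM or RPKM in a group, up to 8 called genes per list of 24 tight junction genes and 13 regulators, by size, and the 3 genes most like a member; some listed genes are counted in their list but not reported by name here. Alternatives were DESeq2 1.42.0, other scalings, filters and pseudocounts, RPKM, sample weights, a replicate block and leaving out each bulk sample or tubule.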

Additional observations from a re-analysis of the deposited data

How the results depend on the processing

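Over the alternatives, none of the 259 member values in the tubules changed side, direction or call; in the GFP sort 89 kept both, 5 lost the call, 1 gained it and 2 reversed, and in the c-Kit and DBA sorts 71 kept both, 13 lost the call and 2 gained it. Both reversals were Cldn3 on RPKM, without (0.08, adjusted p = 0.962) and with a block (0.08, adjusted p = 0.96), a value not called either way. With limma on RPKM 4 claudins were called in the GFP sort in place of 7 (2 of them higher in place of 4), and 1639 genes in all in place of 5101. Of the 7, Cldn18 was under the filter on low values there and was not tested. The cause of the other lost calls was not tested. In the c-Kit and DBA sorts no variance trend left 3 claudins lower in place of 5 (without Cldn3 and Cldn19). There, leaving out 1 bulk sample gave 3 to 6 called claudins, 1 to 2 higher and 2 to 5 lower, and 3458 to 5701 genes in place of 6348, with fewer samples in each fit. Sample weights called 4401 genes between the tubules in place of 2526; the cause was not tested. Leaving out 1 tubule gave 2239 to 3078 genes. In the GFP sort, leaving out 1 sample gave 6 to 7 called claudins and 3616 to 4211 genes. By the median in place of the mean, 5 in place of 9 claudins with a detected level kept their highest cell type. Umod with Cldn19 in the CCDs gave r = 0.86 on the TPM scale (adjusted p = 0.0206) in place of 0.49, and 0.35 without the 2 CCDs farthest from the median of Umod.

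The labels do not say what a shared replicate number means, and deviations of same-numbered samples had r = 0.03 in the c-Kit and DBA sorts, 0.18 in the GFP counts and a median of 0.04 over 14 pairs of tubules with 1 column number. With the replicate block 6271 genes were called in the c-Kit and DBA sorts, 5897 in the GFP sort and, chosen after seeing the data, 2588 (fixed term) or 2763 (random term) in the tubules, and the number of claudins called was the same as without it. The RPKM columns, but not the count columns, name a first and a second experiment; limma on RPKM with the experiment as replicate block, chosen after seeing the data, called 5 claudins and 2157 genes. Leaving out the CCD and the cTAL with the fewest genes, also chosen after seeing the data, gave 3052 genes. The running numbers of the tubule titles are not in the column names, so the block planned on them was not run.

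With 2 samples a group the spread is poorly known, and single-cell shares carry counting error only.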
